A study of Mus musculus with 6 samples.

Results

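Expression of the solute carrier genes was described in cGAS-/- neutrophils with and without lipopolysaccharide (LPS). Members were the genes whose symbol begins with Slc and a number and whose mean over the 6 samples was at least 1, after 7 were left out by name (Slc40a1, Slc11a1, Slc7a2, Slc7a11, Slc2a1, Slc2a3 and Slc16a3). The table held 281 such symbols among 38739 genes. Of these, 194 had a mean under 1, 87 reached it, and 80 remained as members. The level therefore chose the members and is given only as a description. Just inside the limit lay Slc66a1 (mean 1.03), Slc6a9 (1.14) and Slc2a4rg-ps (1.15), and just outside it Slc35f2 (0.988), Slc19a1 (0.968) and Slc41a1 (0.953). In 65 members both group means were at least 1, while 9 had an untreated mean under 1 and 6 an LPS mean under 1, so that these 15 passed through a single group. All members lay on chromosomes 1 to 13, and solute carrier genes elsewhere were not analysed here.

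Neutrophils had been elicited with thioglycolate in the peritoneum of cGAS knockout mice (strain C57B/L6 in the labels, given as 8-week-old males in the study's methods). They were kept in RPMI with fetal bovine serum for 2 h, with medium alone (untreated 1 to 3) or with LPS of E. coli at 500 ng/mL according to the labels (LPS 1 to 3), although the methods name a lower dose for sequencing. Both groups carried the cGAS deletion and no wild-type sample was part of the series, so every difference is one within cGAS-/- cells. Nothing states that the samples came from separate animals, and p-values then measure the spread between these samples, which may be technical. The deposited table is described as normalized counts, but its values are neither whole nor on a common total. From the study's methods and the values they were read as TPM, a measure of transcript abundance that allows for length, averaged over a gene's transcripts and rescaled per sample. They are called scaled TPM here, this reading is an inference, and the comparisons of level between genes rest on it. The number of reads behind the values is unknown.

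Cgas itself lay between 0.0286 and 0.307 scaled TPM in the 6 samples, with no wild-type level beside it. Of the 19 neutrophil markers, 16 were in the table and all 16 had a mean of at least 1 (summed 10601 to 30362 untreated and 18734 to 58008 after LPS). Among these Cxcr2 was called lower and Clec4e higher by the limits given further on. Markers of other cell types were listed too, some of them at low levels. The 8 macrophage markers in the table, none of them at 0 throughout, summed to 164 to 199.8 untreated and 272 to 415 after LPS, and C1qb was called higher. Most of the macrophage sum was Cd68, at 179, 157 and 162 in untreated 1 to 3 and 303, 381 and 229.9 in LPS 1 to 3. The 5 B cell markers summed to 143 to 543 and 67.1 to 238, the 9 T and NK cell markers to 16.1 to 20.8 and 8.37 to 21.5. The 3 mast cell markers summed to 4.69 to 40.8 and 5.05 to 49.1. The 5 eosinophil markers summed to 3.10 to 8.52 and 2.02 to 5.31, with Epx at 0 throughout and 1 marker at a mean of at least 1. The 4 mesothelial markers summed to 0.118 to 0.811 and 0.239 to 0.771, none of them with a mean of at least 1. The 5 erythroid markers differed most between samples, at 356, 21.5 and 5629 in untreated 1 to 3 and 572, 165 and 4651 in LPS 1 to 3. Sample 2 was the lowest and sample 3 the highest of both groups. Whether other cell types took part in the differences of solute carrier genes was not tested. Protein-coding genes took 21.0% to 28.4% of the summed value in untreated and 49.8% to 59.1% in LPS samples.

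Solute carriers are membrane proteins that move small molecules and ions across the plasma membrane and the membranes of mitochondria, lysosomes, vesicles, endoplasmic reticulum and Golgi. They work as exchangers, as cotransporters driven by ion gradients or as facilitators, and each family is known for a class of substrates such as amino acids, metals, sugars or nucleotides. Activated neutrophils are known to rely on glycolysis, which exports lactate through monocarboxylate carriers, and to use metals, chloride and protons in the phagosome. Among the 80 symbols 75 name carriers, and the other 5 (Slc9a3r1, Slc36a3os, Slc2a4rg-ps, Slc4a1ap and Slc7a6os) name adaptors or other genes. Most members were expressed at low levels. The median of their means was 3.82 scaled TPM, 34 lay between 1 and 3, and 17 lay above 10.

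After LPS 5 of the 80 members were called higher, each the one called gene of its substrate class. Among them Slc16a1 (a lactate carrier), Slc7a5 (large neutral amino acids), Slc43a3 (nucleobases) and Slc31a2 (copper) rose by log2 differences of 3.51, 3.1, 2.94 and 2.42, and no member was called lower. A call needed an unadjusted p under 0.01 (limma on log2(scaled TPM + 1), two-sided) with a log2 difference over 2 in either direction, the limits in the study's methods. The 5 called higher were 6.25% of the members, against 1.69% of all 23049 genes tested and 4.14% of the 9403 genes with a mean of at least 1. The 0 called lower stood against 1.31% and 3.2%. A gene with a mean under 1 cannot reach a log2 difference of 2 on this scale, so the shares among genes with a mean of at least 1 are the closer background. That background was not limited to protein-coding genes, while most members are protein-coding. Protein-coding genes as a class took a larger part of the summed value after LPS. No share among protein-coding genes alone was computed, so whether the members differ from these was not tested. At an unadjusted p under 0.05 without a limit on the difference, 26 members (32.5%) were higher and 10 (12.5%) lower, against 10.3% and 6.66% of all genes tested and 16.3% and 12.4% of those with a mean of at least 1. In these bulk samples fewer cells of a type and less RNA per cell cannot be told apart.

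Allowing for the number of genes tested, 2 members were higher at a Benjamini-Hochberg adjusted p under 0.05 in limma, Slc16a1 and Slc7a5. That was 2.5% of the members, against 0.894% of all genes tested and 2.1% of those with a mean of at least 1. No member was lower by this rule (0.946% and 2.3% of genes). Scaling all samples to a common protein-coding total, an alternative added after the data had been seen, left 3 called higher (Slc16a1, Slc43a3 and Slc7a5) and 1 lower (Slc25a20), while calls over all genes went from 389 higher and 301 lower to 220 higher and 522 lower. The study's methods name limma-voom, a method for counts that divides by the sample total, beside edgeR for differential genes. Applied to these values as an alternative, limma-voom called 21 members higher and 0 lower, beside 1041 and 133 of the 9403 genes with a mean of at least 1. As each sample was left out in turn, 5 to 10 members were called higher, with 10 without untreated 1 and 8 without untreated 2. Calls over all genes also moved, from 389 higher to 421 without untreated 1 and 434 without untreated 2. By adjusted p the count became 0 without LPS 1 or LPS 3 and 1 without untreated 1 or untreated 3. With the replicate number as a block in the fit, the count by adjusted p was also 0.

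In 28 members (35%) every LPS sample lay above every untreated one, and in 11 (13.8%) every LPS sample lay below. Over all genes tested these shares were 13.1% and 9.75%, and over genes with a mean of at least 1 they were 19.1% and 15.2%. Neither of these sets was limited to protein-coding genes. The remaining 41 members had groups that overlapped. Differences were above 0 in 51 members (63.7%, against 54.2% of genes with a mean of at least 1), over 1 in 29 and under -1 in 6. Their median was 0.5 on the log2 scale, against 0.01 over all genes tested and 0.13 over genes with a mean of at least 1. That median of genes with a mean of at least 1 moved to -0.23 with the protein-coding total and to 0.82 with limma-voom, and the median of the members to 0.13 and 1.25. Untreated samples varied more than LPS samples. The SD of log2(scaled TPM + 1) had a median of 0.67 among untreated and 0.32 among LPS samples and was larger among untreated samples in 61 of the 80 members, as in 79.5% of genes with a mean of at least 1.

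**Figure D1:**
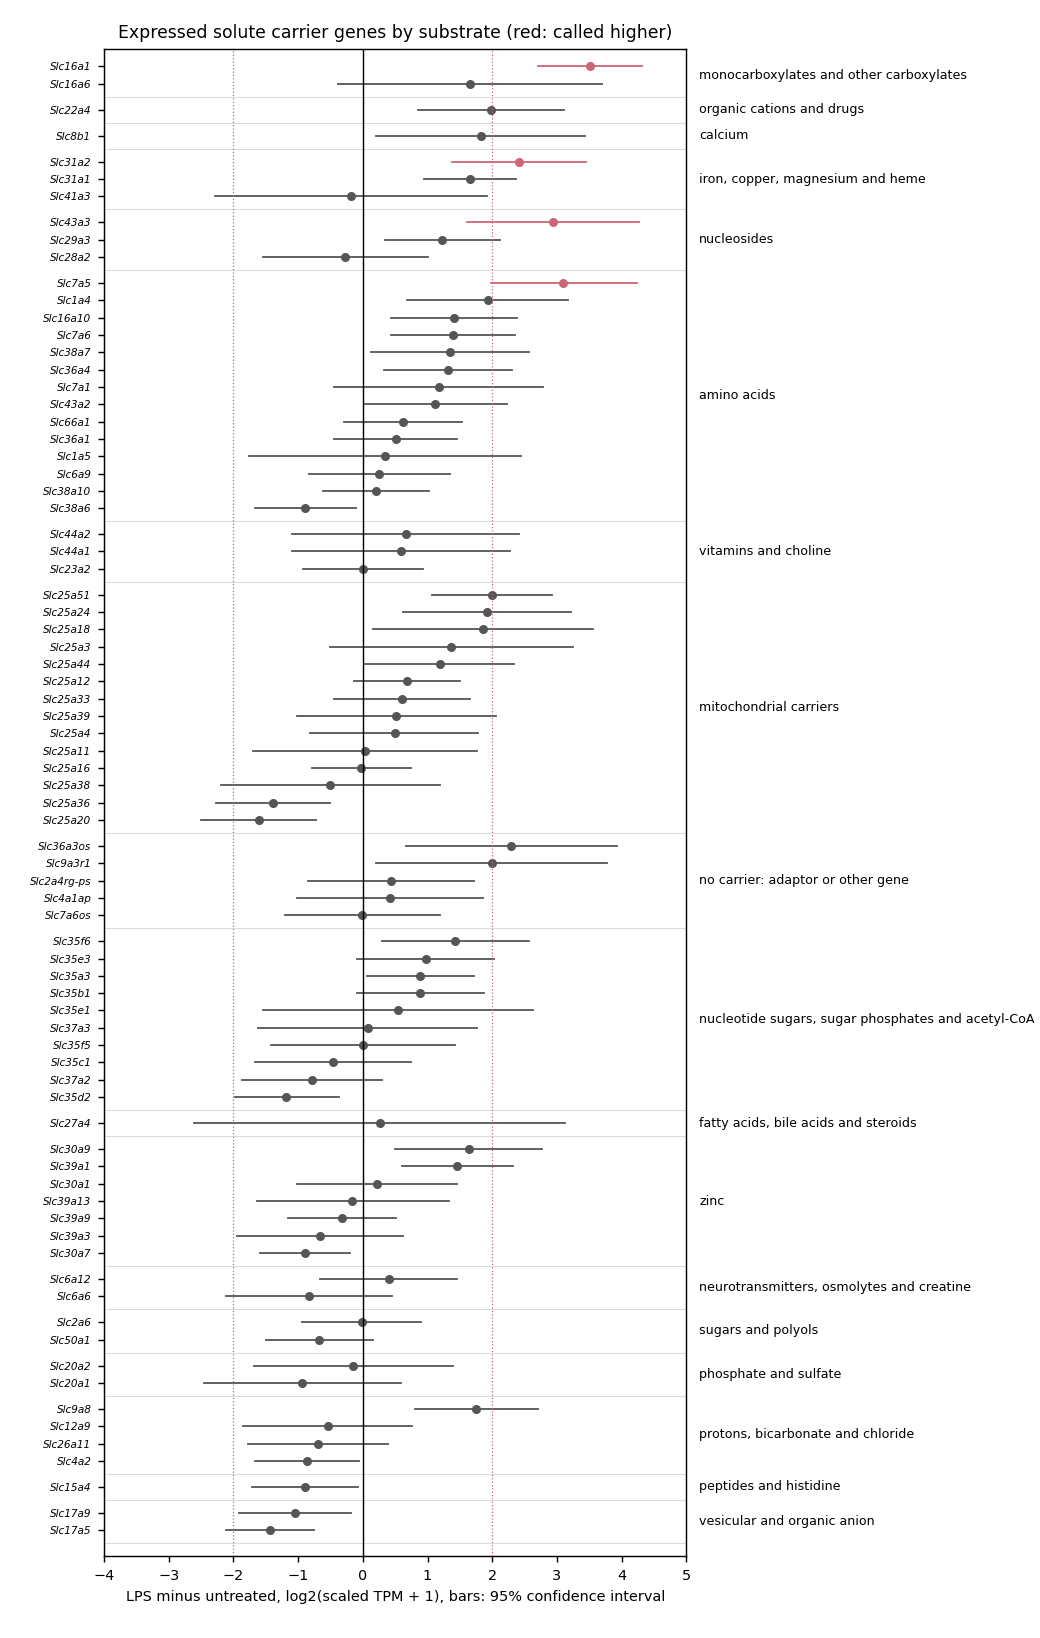
Log2 difference between LPS and untreated samples (x axis, log2(scaled TPM + 1)) of 77 of the 80 members, grouped by substrate, with bars for the 95% confidence interval from limma (3 samples per group). Dotted lines mark the limit of 2 in either direction. The 4 members drawn in red were called higher and lie between 2.42 and 3.51, and the lowest member lies at -1.61.

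Slc16a1, which encodes the monocarboxylate carrier of lactate, pyruvate and ketone bodies, was nearly silent without LPS. Its levels were 0.566, 0.0713 and 0.0704 scaled TPM in untreated 1 to 3 and 15.8, 10.3 and 13.0 in LPS 1 to 3. All 3 LPS samples lay far above the untreated ones, and the groups did not overlap. The mean went from 0.236 ± 0.286 to 13.0 ± 2.78 (SD, n = 3), a ratio of 55.3 and a log2 difference of 3.51 ± 0.33 (SE, limma, adjusted p = 0.014, 95% confidence interval 2.7 to 4.32). The gene lies on chromosome 3 at 104545811 to 104565780 in GRCm39, plus strand. The other carboxylate member, Slc16a6 of the same family, had 3.54, 17.0 and 1.17 in untreated and 9.60, 27.0 and 17.7 in LPS samples. These groups overlapped because untreated 2 was high (log2 difference 1.65, adjusted p = 0.38 in limma), and without that sample the difference was 2.49 and passed the call. The longest transcript of Slc16a6 shares near-identical stretches with 58 other genes.

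Slc31a2, a member of the copper carrier family found on endosomes and lysosomes, was the most abundant carrier among the members. Levels were 13.0, 27.9 and 11.7 scaled TPM in untreated and 73.8, 120.4 and 85.1 in LPS samples. Sample 2 was the highest of each group, and the groups did not overlap. Its mean went from 17.5 ± 8.99 to 93.1 ± 24.3 (SD, n = 3), a ratio of 5.32 and a log2 difference of 2.42 ± 0.42 (SE, limma, adjusted p = 0.053). With the protein-coding total the difference was 1.93 and missed the limit. Slc31a1, the high-affinity copper importer of the plasma membrane and the neighbouring carrier gene on chromosome 4 (Slc31a2 at 62180799 to 62220050, Slc31a1 at 62278085 to 62320861, GRCm39, both on the plus strand), showed 3.84, 4.03 and 4.59 against 13.8, 19.3 and 13.2. The groups of Slc31a1 were also apart, at a log2 difference of 1.66 ± 0.29 (SE, limma, adjusted p = 0.054) below the limit of 2. The magnesium carrier gene Slc41a3 exceeded 1 in untreated 2 (7.45) and LPS 2 (1.23) and lay between 0.0619 and 0.908 in the other samples.

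Promoters of Slc16a1 and Slc31a2 are printed because these are called members with an entry in the RefSeq promoter table (GRCm38.p6). Each runs from 250 bases before to 50 after the start, on the plus strand, at chr3:104638414-104638713 for Slc16a1 and chr4:62286179-62286478 for Slc31a2. Capitals mark the letters CACGTG, an E-box, a motif bound by factors of the Myc, USF and TFE families.
Slc16a1: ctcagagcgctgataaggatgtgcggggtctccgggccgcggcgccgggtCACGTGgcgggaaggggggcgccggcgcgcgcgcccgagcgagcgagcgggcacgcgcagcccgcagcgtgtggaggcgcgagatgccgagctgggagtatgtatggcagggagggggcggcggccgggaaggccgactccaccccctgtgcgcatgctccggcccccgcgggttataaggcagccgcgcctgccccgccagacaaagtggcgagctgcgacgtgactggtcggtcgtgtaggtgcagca
Slc31a2: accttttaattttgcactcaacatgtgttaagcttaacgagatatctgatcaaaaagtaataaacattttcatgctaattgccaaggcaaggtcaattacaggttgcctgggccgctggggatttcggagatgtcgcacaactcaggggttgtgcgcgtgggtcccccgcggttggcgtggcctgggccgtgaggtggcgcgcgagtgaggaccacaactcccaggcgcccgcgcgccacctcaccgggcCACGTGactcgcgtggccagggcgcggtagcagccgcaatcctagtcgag
The letters CACGTG, the same on both strands, were found in 2349 of 32851 promoters (7.15%) and in 12 of the 81 promoters of members (14.8%), which belonged to 64 members. The 32851 promoters were not limited to genes with a mean of at least 1, as the members were, so the 2 shares are not of like sets. Other motifs were searched on both strands. TGANTCA (AP-1) was in 7.41% of member promoters and 7.81% of all, an NF-kB motif, given by name only, in 1.23% and 1.47%, and TGATGNAA (ATF4 element) in 2.47% and 3.97%. A match is a string of letters and not a site. Slc7a5 and Slc43a3 had no entry.

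**Figure D2:**
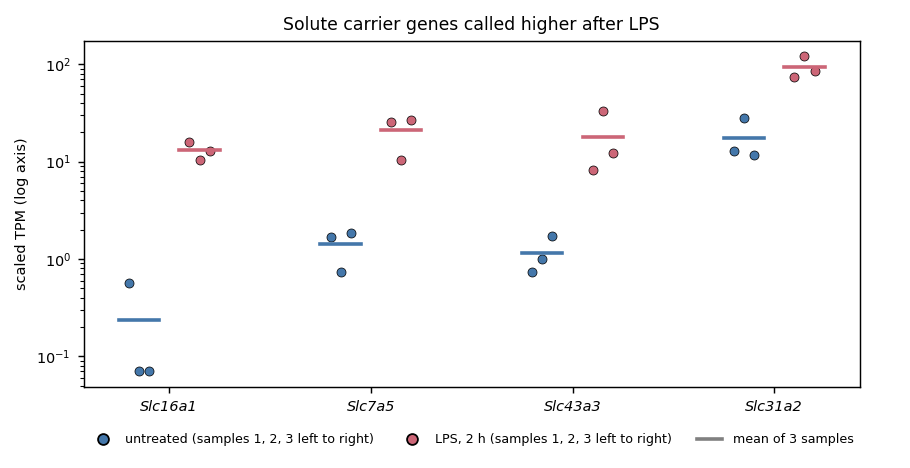
Level (y axis, scaled TPM on a log axis) of 4 members called higher in untreated (blue) and LPS (red) samples, numbers 1 to 3 from left to right, with a line at each group mean. In none do the groups overlap, and the ratio of the means runs from 5.32 for Slc31a2 to 55.3 for Slc16a1.

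Of the 14 amino acid carriers, 1 was called higher and 0 lower, 13 had a difference above 0, and the median difference was 1.15 on the log2 scale. Among genes with a mean of at least 1, 54.2% had a difference above 0 and the median was 0.13. Slc66a1, Slc36a4, Slc7a6 and Slc1a4 had untreated means of 0.646, 0.503, 0.248 and 0.656. They reached the mean of 1 only through the LPS group, which raises these class values. The LPS samples lay wholly above the untreated ones in 7 and wholly below in 1. The same numbers had an unadjusted p under 0.05 in limma in each direction. The alternative limma-voom called 5 of the 14 higher, beside 1041 of the 9403 genes with a mean of at least 1. Among genes with a mean of at least 1, 19.1% lay wholly above and 15.2% wholly below, and 16.3% and 12.4% had such a p. Slc7a5 encodes LAT1, the exchanger of large neutral amino acids. Its levels were 1.70, 0.736 and 1.85 scaled TPM in untreated and 25.6, 10.5 and 26.7 in LPS samples. Sample 2 was the lowest in both groups, and even LPS 2 lay above all untreated samples. The mean went from 1.43 ± 0.604 to 21.0 ± 9.09 (SD, n = 3), a ratio of 14.7 and a log2 difference of 3.1 ± 0.46 (SE, limma, adjusted p = 0.039). Its gene lies on chromosome 8 at 122607884 to 122634433 (GRCm39, minus strand).

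Other amino acid carriers, among them those that share substrates with LAT1, did not pass the call. Slc43a2, which encodes LAT4 and was the most abundant amino acid carrier, showed 24.4, 12.3 and 9.20 scaled TPM in untreated and 24.8, 44.6 and 29.3 in LPS samples. The groups were apart by a narrow margin between untreated 1 and LPS 1 (log2 difference 1.12 ± 0.45, SE, limma, adjusted p = 0.28). Slc7a6, the y+LAT2 exchanger, had 0.119, 0.351 and 0.273 against 3.23, 1.06 and 3.01, and Slc16a10, a carrier of aromatic amino acids, 1.05, 2.94 and 1.67 against 7.56, 7.97 and 4.22. Both were apart between groups, with log2 differences of 1.39 and 1.41 and an adjusted p of 0.14 in limma for each. The carrier of alanine, serine and cysteine Slc1a4 had 1.60, 0.164 and 0.202 against 6.35, 2.49 and 6.86 (log2 difference 1.93, limma unadjusted p = 0.0088), just short of the limit, and it was called without LPS 2 or without untreated 1.

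The glutamine carrier Slc1a5 was related to Slc1a4 but had no such separation. Its levels were 17.5, 0.842 and 4.30 in untreated and 7.90, 3.61 and 7.98 in LPS samples. The highest and the lowest value were both untreated, and the log2 difference was 0.34 with a 95% confidence interval of -1.76 to 2.44. The arginine carrier Slc7a1 also overlapped (4.21, 0.348 and 0.580 against 5.88, 1.82 and 5.59). Carriers of the lysosome and of proton-coupled transport, Slc38a7 and Slc36a4, lay apart at log2 differences of 1.35 and 1.31, both at LPS levels under 10 scaled TPM. Slc38a6 was the single amino acid carrier with a difference below 0. It showed 18.8, 30.3 and 19.7 in untreated and 10.1, 14.0 and 11.1 in LPS samples, so that every LPS sample was lower (log2 difference -0.89 ± 0.32, SE, limma, adjusted p = 0.23). Its longest transcript shares near-identical stretches with 25 other genes. Slc3a2, the partner chain of LAT1 and y+LAT2, was not analysed here.

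**Figure D3:**
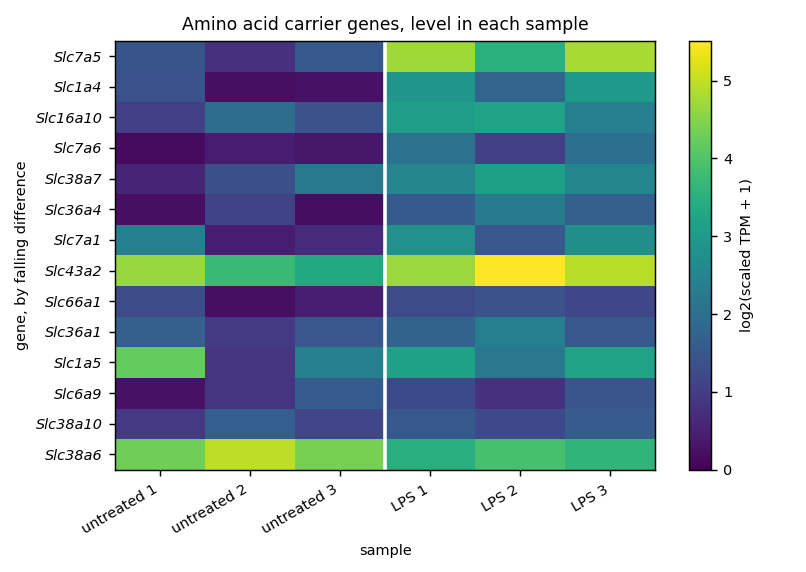
Level of the 14 amino acid carrier genes (rows, by falling difference) in each of the 6 samples (columns), as log2(scaled TPM + 1) by colour. The top entry, Slc7a5, is brighter in all 3 LPS samples, and the bottom one, Slc38a6, is brighter in all 3 untreated samples.

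Slc43a3, a carrier of purine nucleobases, had 0.734, 0.999 and 1.72 scaled TPM in untreated and 8.29, 33.0 and 12.4 in LPS samples. LPS 2 stood far above the other LPS samples, and all of them lay above the untreated ones. The mean went from 1.15 ± 0.511 to 17.9 ± 13.2 (SD, n = 3), a ratio of 15.5 and a log2 difference of 2.94 ± 0.54 (SE, limma, adjusted p = 0.059). The gene lies on chromosome 2 at 84766862 to 84788865 (GRCm39, plus strand). Slc29a3, a nucleoside carrier of lysosomes, had 0.582, 0.307 and 0.930 against 3.51, 1.63 and 3.32 with no overlap (log2 difference 1.23, limma, adjusted p = 0.16). The concentrative nucleoside carrier Slc28a2 overlapped (log2 difference -0.27) and shares a near-identical stretch of 2596 bases with Slc28a2b, so that its level is uncertain.

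Among the 15 mitochondrial carriers of the Slc25 family, 11 had differences above 0 and 4 below, and the median was 0.6. Of genes with a mean of at least 1, 54.2% had a difference above 0, with a median of 0.13. At an unadjusted p under 0.05 in limma, 5 were higher and 2 lower, against 16.3% and 12.4% of genes with a mean of at least 1. The alternative limma-voom called 4 of the 15 higher, beside 1041 of the 9403 such genes. Slc25a51, the carrier of NAD into mitochondria, came close to the limit. Levels were 1.61, 0.461 and 2.00 in untreated and 6.75, 8.70 and 8.66 in LPS samples, all LPS samples being higher (log2 difference 2.0 ± 0.38, SE, limma, unadjusted p = 0.0018), and it passed the call without LPS 1, untreated 1 or untreated 3. Its longest transcript shares near-identical stretches with 26 other genes. Slc25a24, which exchanges ATP-magnesium for phosphate, had 0.257, 0.751 and 0.321 against 2.55, 10.4 and 2.86, with LPS 2 well above the rest. The most abundant of the family were Slc25a33, a carrier of pyrimidine nucleotides (28.2 ± 16.3 and 39.6 ± 4.07, SD, n = 3), and the phosphate carrier Slc25a3 (13.2 ± 9.66 and 26.2 ± 0.705). Slc25a33 overlapped between groups, while Slc25a3 was apart with untreated 3 at 2.05 and the others near 18 or 19. Slc25a4, an exchanger of ADP and ATP, and Slc25a11, which exchanges oxoglutarate for malate, overlapped at log2 differences of 0.49 and 0.03.

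The lowest difference of any member was that of Slc25a20, the carnitine-acylcarnitine carrier that brings fatty acids into mitochondria for oxidation. It had 14.2, 7.75 and 16.2 scaled TPM in untreated and 3.23, 3.84 and 2.90 in LPS samples. Every LPS sample lay below the untreated ones, and LPS samples differed little among themselves. The mean was 12.7 ± 4.41 untreated and 3.32 ± 0.478 after LPS (SD, n = 3), a ratio of 0.261 and a log2 difference of -1.61 ± 0.36 (SE, limma, unadjusted p = 0.0041, adjusted p = 0.088). It did not reach the limit of -2, except with the protein-coding total, where it was -2.05. Slc25a36, a carrier of pyrimidine nucleotides like Slc25a33, also lay lower in every LPS sample (9.28, 4.53 and 8.98 against 2.24, 1.79 and 2.51, log2 difference -1.39, limma, adjusted p = 0.12). The longest transcripts of Slc25a20 and Slc25a36 share near-identical stretches with 21 and 1 other genes.

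Both members of the Slc17 family and Slc15a4 lay lower in every LPS sample, though none passed the call. Slc17a5, which exports sialic acid from lysosomes, had 12.7, 12.0 and 10.5 scaled TPM in untreated and 3.38, 4.52 and 3.23 in LPS samples. The groups were well apart and each was narrow (log2 difference -1.44 ± 0.28, SE, limma, unadjusted p = 0.0021, adjusted p = 0.067). Its longest transcript has near-identical stretches in 388 other genes, so its reads may be shared. Slc17a9, which fills vesicles with ATP, had 2.20, 3.46 and 3.75 against 1.48, 0.474 and 1.08 with no overlap (log2 difference -1.05, limma, adjusted p = 0.2). Slc15a4, a lysosomal carrier of histidine and of peptides that activate innate sensors, had 3.72, 3.88 and 5.41 against 1.12, 2.20 and 2.35. All LPS samples were lower there too (log2 difference -0.9 ± 0.34, SE, limma, adjusted p = 0.25), and its longest transcript shares near-identical stretches with 25 other genes.

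**Figure D4:**
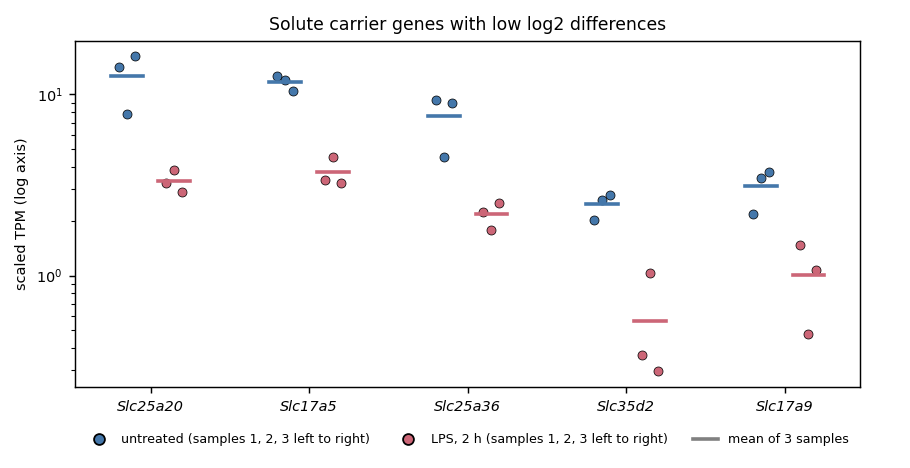
Level (y axis, scaled TPM on a log axis) of 5 members with low log2 differences in untreated (blue) and LPS (red) samples, numbers 1 to 3 from left to right, with a line at each group mean. In all 5 the LPS samples lie below the untreated ones, at differences from -1.61 (Slc25a20) to -1.05 (Slc17a9), and none passed the call.

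Other carriers that bring ligands of innate sensors across membranes were under the mean of 1 and so are not members. Slc19a1, the folate carrier that also imports cyclic dinucleotides, the products of cGAS and of bacteria, had 0.273, 0 and 0.455 scaled TPM in untreated and 2.20, 0.874 and 2.01 in LPS samples. Every LPS sample was above the untreated ones, with a log2 difference of 1.09 ± 0.35 (SE, limma, adjusted p = 0.19). Slc46a3 had 0.586, 0.381 and 1.88 against 0.311, 0.181 and 0.286 (log2 difference -0.55, limma, adjusted p = 0.47), and Slc46a2 was listed at 0 in all samples.

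Among the 6 carriers of protons, bicarbonate and chloride, none was called, and 2 differences were above and 4 below 0, with a median of -0.62. At an unadjusted p under 0.05 in limma, 1 was higher and 2 were lower. The alternative limma-voom called 1 higher, beside 1041 of the 9403 genes with a mean of at least 1. Among genes with a mean of at least 1, 16.3% were higher and 12.4% lower at that p. The anion exchanger Slc4a2 had 2.80, 3.42 and 3.90 scaled TPM in untreated and 0.918, 2.14 and 1.25 in LPS samples. Every LPS sample was lower (log2 difference -0.87 ± 0.33, SE, limma, adjusted p = 0.26). The endosomal sodium-proton exchanger Slc9a8 stood on the other side, with 0.680, 1.53 and 1.54 against 4.13, 9.29 and 6.87. Its groups did not overlap (log2 difference 1.75 ± 0.39, SE, limma, unadjusted p = 0.004, adjusted p = 0.086), and without LPS 1 the difference was 2.03 and passed the call.

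Zinc carriers were divided, with 3 of 7 differences above 0, a median of -0.16 and none called in limma. At an unadjusted p under 0.05 in limma, 2 were higher and 1 lower, against 16.3% and 12.4% of genes with a mean of at least 1. By limma-voom 2 of the 7 zinc carriers were called higher, beside 1041 of the 9403 genes with a mean of at least 1. Slc39a1 (ZIP1), an importer of zinc and the most abundant of them, had 16.7, 26.1 and 36.2 scaled TPM in untreated and 66.8, 72.0 and 74.4 in LPS samples. The groups were apart, and the LPS samples were close together (log2 difference 1.46 ± 0.35, SE, limma, unadjusted p = 0.0058, adjusted p = 0.1). It shares near-identical stretches with 2 other genes. Slc30a9, a zinc carrier of mitochondria, had 2.37, 0.391 and 0.273 against 4.79, 5.51 and 3.74 with no overlap (log2 difference 1.64), and without untreated 1 the difference was 2.08 and passed the call. Slc30a7, which moves zinc into the secretory pathway, was lower in every LPS sample, at 13.4, 11.0 and 9.48 against 5.27, 6.26 and 5.15 (log2 difference -0.89 ± 0.28, SE, limma, adjusted p = 0.18). The zinc exporter of the plasma membrane, Slc30a1, overlapped at a difference of 0.22.

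Nucleotide sugar carriers of the Slc35 family supply glycosylation in the endoplasmic reticulum and Golgi, and Slc37 carriers move sugar phosphates. The 10 members of these families were counted together as a class, whether or not each is known to carry such a substrate. Of these 10, 6 had differences above 0 and 4 below, Slc35f5 among the latter at 0.0 after rounding. The median was 0.31 and none was called in limma. At an unadjusted p under 0.05 in limma, 2 were higher and 1 lower, against 16.3% and 12.4% of genes with a mean of at least 1. By limma-voom 1 was called higher, beside 1041 of the 9403 genes with a mean of at least 1. Slc35d2 had 2.03, 2.62 and 2.80 scaled TPM in untreated and 0.366, 1.03 and 0.297 in LPS samples, all LPS samples being lower (log2 difference -1.18 ± 0.33, SE, limma, adjusted p = 0.14). Slc35f6 had 3.63, 0.977 and 0.684 against 4.79, 7.02 and 5.55, all LPS samples being higher (log2 difference 1.43, limma, adjusted p = 0.19). Slc37a2, a sugar-phosphate carrier of the endoplasmic reticulum and the most abundant of them (4.58, 5.43 and 11.9 against 2.56, 5.14 and 3.18), overlapped. Slc35c1, which brings GDP-fucose into the Golgi for selectin ligands, overlapped as well (log2 difference -0.46, 95% confidence interval -1.66 to 0.74).

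Smaller families had 1 to 3 members each. Slc22a4, the carrier of ergothioneine, had 5.97, 6.95 and 2.89 scaled TPM in untreated and 19.6, 37.2 and 15.9 in LPS samples. All LPS samples were higher, and the log2 difference of 1.98 ± 0.46 (SE, limma, unadjusted p = 0.0049, adjusted p = 0.095) was just under the limit of 2. It passed the call without LPS 3 (2.22) or untreated 2 (2.19). Slc8b1, the sodium-calcium exchanger of mitochondria, had 13.0, 3.80 and 1.57 against 14.8, 26.2 and 16.8. The margin between untreated 1 and LPS 1 was small (log2 difference 1.82, limma, adjusted p = 0.24), and without untreated 1 the difference was 2.49 and passed the call.

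Several well-expressed carriers showed no separation. Slc2a6, a hexose carrier of lysosomes, had 25.4, 52.3 and 49.4 scaled TPM in untreated and 32.7, 45.5 and 42.6 in LPS samples, and its log2 difference of -0.02 had a 95% confidence interval of -0.94 to 0.9. Taurine carrier Slc6a6 had 26.4, 69.7 and 65.5 against 26.1, 44.2 and 17.7 (log2 difference -0.83), with untreated 1 and LPS 1 nearly equal. The choline carrier genes Slc44a1 and Slc44a2 overlapped at log2 differences of 0.59 and 0.66, and the ascorbate carrier Slc23a2 at 0.0.

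A single untreated sample set the mean of some members. Slc27a4, a fatty acid carrier, had 1.48, 56.9 and 5.63 scaled TPM in untreated and 8.15, 20.8 and 7.16 in LPS samples, and its log2 difference of 0.26 (95% confidence interval -2.61 to 3.12) had no stable sign. The phosphate carrier Slc20a1 had 36.9, 6.67 and 9.93 against a mean of 6.73 ± 0.965 after LPS (SD, n = 3), with untreated 1 far above the others (log2 difference -0.94, limma, adjusted p = 0.52). Slc35e1 had 14.0 in untreated 3 and 0.851 and 0.933 in the other untreated samples, against 3.76 to 4.92 after LPS.

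The 5 members that are no carriers included the most abundant one. Slc9a3r1 encodes NHERF1, a scaffold that ties membrane proteins to the cytoskeleton. It had 119, 230.5 and 32.6 scaled TPM in untreated and 311, 542 and 343 in LPS samples. Every LPS sample was higher, but untreated samples were widely spread (log2 difference 1.99 ± 0.73, SE, limma, unadjusted p = 0.034, adjusted p = 0.24). Slc36a3os, a long non-coding RNA, had 4.28, 0 and 2.34 against 15.5, 8.08 and 12.9, the groups being apart, and its log2 difference of 2.29 ± 0.67 (SE) missed the limit on p (limma, unadjusted p = 0.014) but was called without untreated 1. Slc7a6os, a neighbour of Slc7a6, overlapped at -0.01.

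Carriers with other names and the partners of carriers were counted from lists of genes. Of 46 carriers named otherwise, 36 were in the table and 34 were tested. Slco3a1, an organic anion carrier, was the one called higher (1.50, 1.45 and 0.277 scaled TPM in untreated and 5.96, 19.2 and 7.75 in LPS samples, log2 difference 2.43 ± 0.53, SE, limma, adjusted p = 0.082). None was called lower (2 at an unadjusted p under 0.05 in limma, 0 by limma-voom), and the median difference of the list was 0.03. Over all genes tested, 1.69% were called higher and 1.31% lower. At an unadjusted p under 0.05 in limma, 10.3% of all genes were higher and 6.66% lower. Of 31 carrier partners and ion pumps, 24 were tested, none was called in limma, and the median was 0.12. Among them 8 had an unadjusted p under 0.05 in limma, 6 higher and 2 lower. Of the 17 with a mean of at least 1, limma-voom called 5 higher, beside 1041 of all 9403 such genes.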

How the data were processed

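Total RNA of 6 samples (3 untreated, 3 LPS) was sequenced from stranded mRNA libraries. The authors trimmed reads with fastp, used STAR and kallisto and normalized with edgeR, as the labels and methods state. Builds GRCm39 and mm10 are both named in the submitters' processing notes. The deposited values, described as normalized counts, were read as TPM averaged over a gene's transcripts and rescaled per sample. This unit is inferred from the methods, the sample sums and the length of the decimals, and the averaging could not be checked on the members. The values are not whole counts, so depth is unknown and no count test was a main result. limma-voom, made for counts, was an alternative.

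All 23049 genes above 0 in a sample were fitted with limma 3.58.1 (R 4.3.3) on log2(value + 1) (lmFit, eBayes with a mean-variance trend), with Benjamini-Hochberg adjustment over all genes. Calls needed p under 0.01 and a log2 difference over 2. The script was tested on simulated data. Named genes were members called by either rule, the highest mean of each substrate group, the extreme differences of groups of 5 or more, the genes beside the mean of 1, carriers of ligands of innate sensors and called genes of the other lists, and other genes were named after their values were seen. Members, substrate groups and lists were chosen with earlier results of these data known. Genes were placed by symbol (79 of 80, and 1 by a newer symbol) in GENCODE M39. Near-identical stretches were those of at least 95% identity over 150 bases (blastn 2.17.0), found for 26 members and for none of the 5 called. Values of some members and list genes are not reported here. Alternatives changed the pseudocount (0.1 or 5), filter, scaling, trend, method, replicate block, limit or samples.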

Additional observations from a re-analysis of the deposited data

How the results depend on the processing

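With 3 samples per group and unknown depth, the spread between samples is the only measure of precision. No call of a member reversed, and among the 33 named members 480 of 528 values under alternatives kept direction and side of the limits. Members called higher (5) became 11 with a pseudocount of 0.1, 1 with a pseudocount of 5, 21 with limma-voom, which divides by the sample total, 3 with the protein-coding total, added after the data had been seen, and 11 with a limit of 1 on the log2 difference. Calls over all genes moved the same way. From 389 higher they became 856 and 129 with these pseudocounts, 1041 with limma-voom and 220 with the protein-coding total. Those called lower (0) became 1 with the protein-coding total and 3 with the limit of 1. Members higher at adjusted p under 0.05 (2) became 4 with a pseudocount of 0.1, 1 with 5, 9 among genes with a mean of at least 1, 4 with quantile normalization, 6 without the trend and 17 with limma-voom. Those lower (0) became 2 among genes with a mean of at least 1, 4 without the trend and 1 with the protein-coding total. The median difference of 0.5 became 0.71 with a pseudocount of 0.1, 0.14 with 5, 1.25 with limma-voom and 0.13 with the protein-coding total. Leaving out each sample in turn gave 5 to 10 called higher, 0 to 2 higher and 0 to 1 lower by adjusted p (1 without untreated 2), and a median from 0.45 to 0.62. Among all genes, 238 to 434 were called higher in these fits. With the replicate number as a block, 5 members were called higher, Slc36a3os among them, and 0 were higher by adjusted p. Correlations of same-numbered samples were 0.102, 0.22 and 0.0925, not all over 0.1, so the numbers were not taken to pair the samples. Every sample still correlated best with its own number, so a pairing by number remains possible. The adjusted p of the main fit leaves such a pairing out. Slc16a1, Slc7a5, Slc43a3 and Slc31a2 had adjusted p from 0.0039 to 0.19 over the alternatives. Signs turned only for uncalled named members. Slc27a4 (0.26) was -0.02 with a pseudocount of 5, -0.17 with the protein-coding total and from -0.74 to 1.54 as each sample was left out. Slc2a6 (-0.02) was 0.09 with quantile normalization, 0.62 with limma-voom and from -0.34 to 0.16 as each sample was left out. Slc6a9 (0.25) was from -0.06 to 0.61. Slc7a6os (-0.01) was 0.02 with a pseudocount of 0.1, 0.64 with limma-voom and from -0.52 to 0.29. Slc16a1, Slc7a5 and Slc43a3 lost their call with a pseudocount of 5, at differences of 1.78, 1.95 and 1.75, since a larger pseudocount shrinks low genes. The cause of the other shifts was not tested.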

Other observations

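LPS 2 often stood at an end of the LPS group. Among the 80 members it held the highest LPS level in 45 and the lowest in 30. The same count was not made over all genes, so it is not read as a trait of solute carrier genes. It was lowest in 7 of the 14 amino acid carriers and highest in the other 7, and highest in 9 of the 15 mitochondrial carriers. The lowest LPS values of Slc7a5 and Slc16a1 (10.5 and 10.3 scaled TPM) belonged to LPS 2, as did the highest of Slc43a3 (33.0), Slc31a2 (120.4) and Slc22a4 (37.2). Values above 0 were listed for 16148 genes in LPS 2, 18518 in LPS 1 and 19191 in LPS 3. Whether these go together was not tested.

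Some carrier partners and pumps below the limit had groups that were apart. Mcu, the pore of the mitochondrial calcium uniporter, had a log2 difference of 1.47 (limma, adjusted p = 0.068), with 0.237, 0.250 and 0.377 scaled TPM in untreated and 2.48, 3.10 and 2.17 in LPS samples. Atp2b4, a calcium pump of the plasma membrane, had 1.36 (adjusted p = 0.092), and Atp2c1, a calcium and manganese pump of the Golgi, -1.36 (adjusted p = 0.11). These genes were chosen after their values were seen. Of the 194 solute carrier genes under the mean of 1, 38 were listed at 0 in all samples. Of the 156 tested, 17 had an unadjusted p under 0.05 in limma, 14 higher and 3 lower. Over all genes tested, 10.3% were higher and 6.66% lower at that p. At so low a mean as that of these solute carrier genes, the limit on the log2 difference cannot be reached.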
